A study of Homo sapiens with 6 samples.

Results

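The 5 genes described here belong to the ATF4 branch of the integrated stress response and were followed in SH-SY5Y, a human neuroblastoma line with features of sympathetic neurons. They are ATF4, DDIT3, SESN2, PSAT1 and VLDLR. The genes were chosen by name, with earlier results of these data known. For each the brightest probe set over the arrays was to be used. Each of the 5 had exactly 1 named probe set, so all 5 were measured, out of 14884 named genes on the array. Cells were treated for 24 h with securinine, a plant alkaloid, at 30 µM, with 16F16 at 4 µM, or with the solvent methanol as mock treatment. Both are described by the series as inhibiting protein disulfide isomerase, which makes and reshuffles the disulfide bonds of proteins folding in the endoplasmic reticulum (ER). There were 6 Affymetrix Human Gene 2.0 ST arrays, 2 per group, all from the same line, at 1 dose per compound and 1 time. The doses of the compounds differed. Arrays of a group are labelled as biological replicates, with no word on whether the cultures were separate, so p-values reflect only the spread between these samples, which may be technical.

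The integrated stress response starts with kinases that sense ER stress, amino acid shortage, double-stranded RNA or mitochondrial and heme stress and phosphorylate the translation factor eIF2alpha. Most translation then slows while translation of ATF4 mRNA increases, so ATF4 mRNA is an incomplete guide to ATF4 protein. ATF4 is a bZIP transcription factor that induces genes of amino acid synthesis, such as PSAT1, and stress genes such as DDIT3 and SESN2. In mouse liver VLDLR has been placed downstream of the same branch. DDIT3 encodes CHOP, a bZIP factor known for its part in cell death under lasting ER stress. SESN2 also responds to p53 and NRF2, so it is not a reporter of ATF4 alone.

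Bases directly upstream of the gene start are shown for DDIT3 and SESN2, the members with the largest rises in the results below, and for PSAT1, which moved the other way. The sequences are from RefSeq, build GRCh38.p14, where all 5 genes were matched. Each covers 250 bases ending at the base before the start, at chr12:57520518-57520767 on the minus strand for DDIT3, chr1:28259268-28259517 on the plus strand for SESN2 and chr9:78296875-78297124 on the plus strand for PSAT1. Capitals mark matches to CCAAT (or its reverse complement ATTGG), the CCAAT box, and to TGANTCA, the AP-1 site.
DDIT3: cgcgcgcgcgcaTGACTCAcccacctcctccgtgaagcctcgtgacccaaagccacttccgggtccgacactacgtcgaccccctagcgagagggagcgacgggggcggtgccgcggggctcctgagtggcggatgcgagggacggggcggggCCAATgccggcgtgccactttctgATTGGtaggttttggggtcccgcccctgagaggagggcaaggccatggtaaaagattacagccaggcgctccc
SESN2: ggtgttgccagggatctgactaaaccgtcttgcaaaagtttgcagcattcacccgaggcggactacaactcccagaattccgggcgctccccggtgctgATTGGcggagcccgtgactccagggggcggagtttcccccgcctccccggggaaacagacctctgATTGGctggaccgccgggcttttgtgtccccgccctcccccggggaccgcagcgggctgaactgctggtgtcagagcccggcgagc
PSAT1: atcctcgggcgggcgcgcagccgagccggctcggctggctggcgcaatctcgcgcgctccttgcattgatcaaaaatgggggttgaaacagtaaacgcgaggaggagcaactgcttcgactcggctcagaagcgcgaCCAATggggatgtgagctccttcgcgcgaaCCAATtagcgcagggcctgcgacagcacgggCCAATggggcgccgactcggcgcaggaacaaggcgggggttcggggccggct
Both strands were searched, also for TGATGNAA (the composite element bound by C/EBP and ATF factors), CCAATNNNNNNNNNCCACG (the ER stress response element, which contains a CCAAT box) and TGACGTCA (the cyclic AMP response element). These windows held 2 CCAAT boxes in DDIT3, 2 in SESN2 and 3 in PSAT1, and 1 AP-1 site in DDIT3. The windows of ATF4 and VLDLR held no match to any of the 5 motifs. Among 27305 promoter windows of the same length, 33.1% held a CCAAT box, 6.59% an AP-1 site, 3.19% the composite element, 1.75% the cyclic AMP response element and 0.0806% the ER stress response element. A match describes letters and is not a measured binding site. Only exact matches within the 250 bases were counted, so an inexact or more distant element would be missed. In DDIT3 the stretch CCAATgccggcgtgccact differs from the searched ER stress response element in its last letter. In PSAT1 the stretch tgatcaaa differs from the searched composite element in 1 letter. Inexact matches were not searched for, so others may exist, and their share among all windows is not known.

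The expression values are log2 values made by RMA, which subtracts background, brings the arrays to a common distribution and combines the probes of each probe set into 1 value. Differences below are on the log2 scale with the standard error (SE) of a limma fit of all 6 arrays, and p-values are two-sided, with Benjamini-Hochberg adjustment across all 14884 genes. A gene was called higher or lower at an adjusted p under 0.05. The neuroblastoma label was held against marker genes. Of 15 measured noradrenergic neuroblastoma markers, 14 lay above the upper quartile of all probe sets on all 6 arrays, the exception being TH, the enzyme that starts dopamine synthesis. None of 6 measured epithelial, blood and endothelial markers lay above the upper quartile on any array, and KRT5 and PECAM1 were at or below the array median on all 6. Of 10 markers of the mesenchymal neuroblastoma state, all measured, 5 lay above the upper quartile on all 6 arrays. The mean log2 value of the noradrenergic markers was 8.84 to 8.92 on the securinine arrays, 9.11 to 9.14 on the 16F16 arrays and 9.50 to 9.52 on the mock arrays. The mesenchymal markers averaged 6.70 to 6.73 with securinine, 6.48 to 6.57 with 16F16 and 6.25 to 6.28 with mock. With securinine FOSL1 rose most, by 2.51, while PRRX1, VIM and FN1 were at -0.19, -0.084 and -0.43 and were not called. No mesenchymal marker was called with 16F16. The mean of the other-cell markers was 4.04 to 4.05 with securinine, 4.06 to 4.15 with 16F16 and 4.07 to 4.10 with mock.

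With securinine, DDIT3, SESN2 and ATF4 rose and PSAT1 and VLDLR fell, so the 5 genes did not move as 1 block. All 5 were called, 3 higher and 2 lower, and 19.0% of all genes were called in this comparison. By direction, 8.40% of all genes were called higher and 10.6% lower. With 16F16, SESN2 rose, PSAT1 and VLDLR fell, and DDIT3 and ATF4 did not pass the test. That made 3 of 5 called, against 1.50% of all genes (0.719% higher and 0.779% lower). Because the 5 genes were chosen with earlier results known, their shares are no fair contrast with those of all genes. In these bulk RNA samples, fewer cells of a type and less RNA per cell cannot be told apart. Noradrenergic markers also moved with treatment, with 9 of 15 called lower and 1 higher with securinine. Of the 10 mesenchymal markers 5 were called higher and 0 lower with securinine. The part of either list in these results was not tested.

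**Figure D1:**
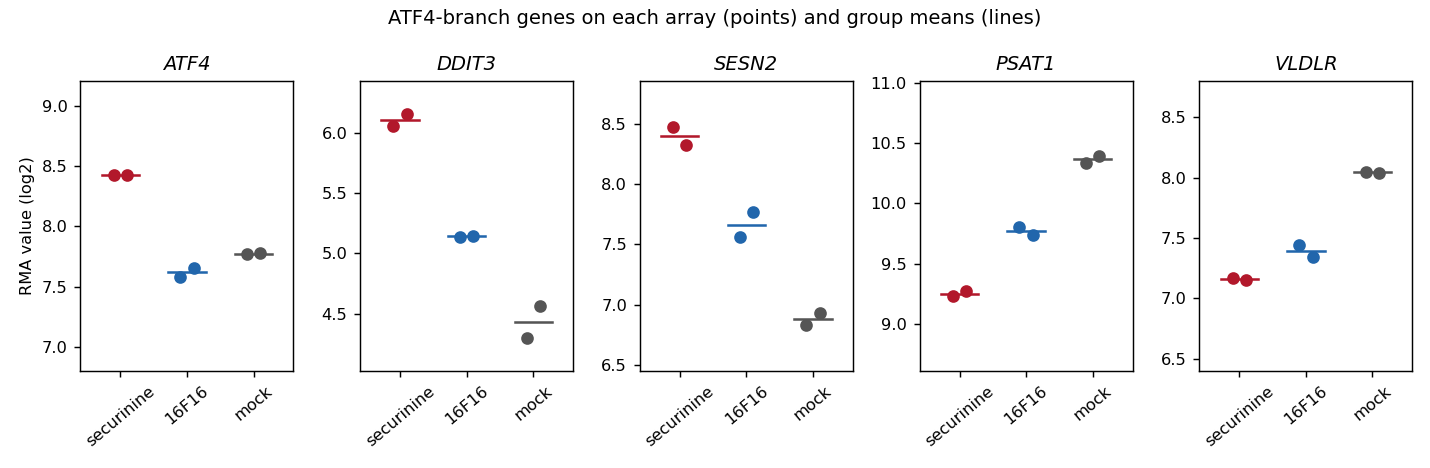
RMA values (log2, vertical axis) of ATF4, DDIT3, SESN2, PSAT1 and VLDLR on each of 2 arrays per group (points) with group means (lines), and the same axis length in each panel. DDIT3 and SESN2 were highest with securinine, PSAT1 and VLDLR were highest with mock, and the ATF4 values of 16F16 lay just below those of mock.

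ATF4 read 8.42 and 8.43 on the securinine arrays, 7.58 and 7.66 on the 16F16 arrays and 7.77 and 7.78 on the mock arrays. The securinine arrays stood above all others, and the 16F16 arrays lay slightly below mock without overlapping it. With securinine ATF4 rose by 0.65 ± 0.077 (SE, n = 2 arrays in each group), or 1.57-fold, with an adjusted p of 0.0063 in limma. With 16F16 the difference was -0.16 ± 0.077 (95% interval -0.35 to 0.033), with an adjusted p of 0.31. The order of the levels was securinine, mock, 16F16, and mock and 16F16 did not differ in the test. Among the 5 genes ATF4 was the one whose differences from mock had opposite signs under the compounds. The direct contrast of securinine with 16F16 was 0.81 ± 0.077 (adjusted p = 0.0098 in limma).

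DDIT3 read 6.06 and 6.16 on the securinine arrays, 5.13 and 5.15 on the 16F16 arrays and 4.30 and 4.57 on the mock arrays. All 3 groups were separate. DDIT3 rose by 1.67 ± 0.11 with securinine, 3.19-fold, with an adjusted p of 0.0023 in limma. Its rise ranked 23 among the 14884 genes. With 16F16 the difference was 0.71 ± 0.11 (1.63-fold, 95% interval 0.43 to 0.99), and it missed the threshold with an adjusted p of 0.053. It passed after quantile normalization (adjusted p = 0.048) and when the variance prior followed intensity (adjusted p = 0.0080). Of the 8 alternatives other than leaving out a single array, the remaining 6 did not pass, with an adjusted p of up to 0.18 in limma. DDIT3 was 0.97 ± 0.11 higher with securinine than with 16F16 (adjusted p = 0.014 in limma). On the mock arrays its probe set stood at percentiles 51.8 and 56.0 of all probe sets, so its mock level was close to the middle of the array, and without detection calls a bound from background could not be set. The microRNA gene MIR616 lies inside DDIT3, and its probe set read 4.69 and 4.85 with securinine, 3.34 and 3.91 with 16F16 and 3.42 and 2.23 with mock. On the mock arrays the MIR616 probe set stood at percentiles 36.1 and 14.8, so its mock signal was not shown to be above background. Its difference from mock was called with securinine (adjusted p = 0.025 in limma) and not with 16F16 (adjusted p = 0.32), and no size is given. MARS1, a tRNA synthetase gene whose annotated span overlaps DDIT3, was at 0.060 ± 0.085 with securinine (adjusted p = 0.68 in limma).

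SESN2 encodes sestrin 2, a leucine-binding protein that restrains the growth kinase complex mTORC1. It read 8.48 and 8.33 on the securinine arrays, 7.56 and 7.77 on the 16F16 arrays and 6.83 and 6.93 on the mock arrays. No 2 groups overlapped, and the order was securinine, 16F16, mock. SESN2 rose by 1.52 ± 0.11 with securinine (2.86-fold, adjusted p = 0.0025 in limma) and by 0.78 ± 0.11 with 16F16 (1.72-fold, adjusted p = 0.042). These rises ranked 26 and 92 among all genes. SESN2 was 0.74 ± 0.11 higher with securinine than with 16F16 (adjusted p = 0.021 in limma). It was the single member called higher with 16F16.

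PSAT1 encodes phosphoserine aminotransferase, the middle enzyme of serine synthesis from a glycolytic intermediate. It read 9.23 and 9.27 on the securinine arrays, 9.81 and 9.74 on the 16F16 arrays and 10.34 and 10.40 on the mock arrays. Every treated array lay below both mock arrays. PSAT1 fell by 1.11 ± 0.079 with securinine (2.16-fold lower, adjusted p = 0.0025 in limma) and by 0.59 ± 0.079 with 16F16 (1.51-fold lower, adjusted p = 0.039). The difference of securinine from 16F16 was -0.52 ± 0.079 (adjusted p = 0.022 in limma). In mock cells the probe set stood at percentile 97.9 of all probe sets on both arrays, so the fall started from a bright signal.

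VLDLR encodes a receptor for triglyceride-rich lipoproteins and for reelin, a guidance protein of migrating neurons. It read 7.17 and 7.16 on the securinine arrays, 7.45 and 7.34 on the 16F16 arrays and 8.05 and 8.04 on the mock arrays. Both treated groups lay well below mock and close to each other. VLDLR fell by 0.88 ± 0.079 with securinine (1.84-fold lower, adjusted p = 0.0040 in limma) and by 0.65 ± 0.079 with 16F16 (1.57-fold lower, adjusted p = 0.035). The difference of securinine from 16F16 was -0.23 ± 0.079 (95% interval -0.43 to -0.037, adjusted p = 0.13), which did not pass. It did pass when the variance prior followed intensity (adjusted p = 0.042) and with only the brighter genes in the fit (adjusted p = 0.027). Of the 9 alternatives other than leaving out a single array, the remaining 7 did not pass, with an adjusted p of up to 0.31 in limma. VLDLR-AS1, an antisense gene whose span overlaps VLDLR, was at -0.42 ± 0.17 with securinine (adjusted p = 0.15 in limma) and -0.29 ± 0.17 with 16F16 (adjusted p = 0.38).

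**Figure D2:**
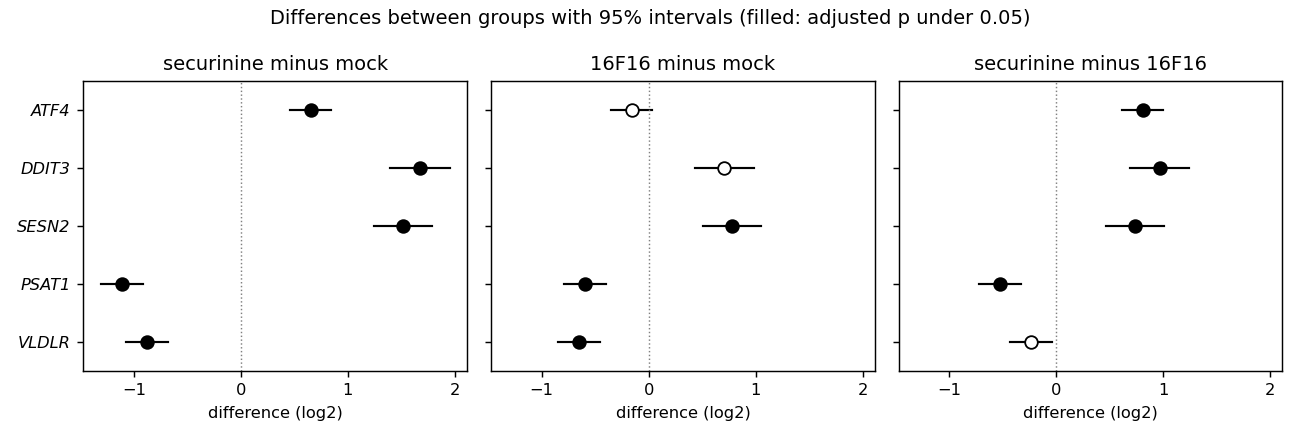
Differences between groups (log2, horizontal axis) with 95% intervals from limma for the 5 genes, in 1 panel per comparison, with filled points for an adjusted p under 0.05. Securinine against mock has 5 filled points, and the open points are ATF4 and DDIT3 for 16F16 against mock and VLDLR for securinine against 16F16.

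Set directly against each other at their unequal doses, the compounds differed in 4 of the 5 genes, with 9.51% of all genes called in that comparison (3.96% higher and 5.55% lower with securinine). ATF4, DDIT3 and SESN2 were higher with securinine, and PSAT1 was lower. All 5 calls of securinine against mock held without any 1 of the 6 arrays. The 3 calls of 16F16 against mock did not, since the count was 0 of 5 when any 1 of the 6 arrays was left out, whichever the group. With the securinine arrays out of the fit 0 of the 5 passed as well, and 4 had an unadjusted p under 0.05 in limma. The 4 calls of securinine against 16F16 dropped to 2 without mock replicate 1 or 2, to 0 without securinine replicate 1, securinine replicate 2 or 16F16 replicate 1, and to 1 without 16F16 replicate 2.

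The other genes of the pathway were taken from 8 lists by role, also chosen with earlier results of these data known. Shares called in the lists are therefore no fair contrast with those of all genes. The lists held 132 genes besides the 5. Of these 77 were measured, and none of the 13 amino acid transporter genes on the lists had a named probe set. With securinine 28 of the 77 were called, 11 higher and 17 lower, or 36.4% against 19.0% of all genes. The median difference of the 77 was -0.028, against -0.035 over all genes. With 16F16 GDF15 and SQSTM1 were called, both higher, or 2.6% against 1.50% of all genes, and the other 75 were not. At an unadjusted p under 0.05 there were 30 of the 77 with 16F16, or 39% against 21.1% of all genes. Leaving out mock replicate 1 lowered the 28 to 9 and leaving out mock replicate 2 lowered it to 10. With securinine replicate 1 left out it was 11, and with securinine replicate 2 left out 13. The 2 with 16F16 dropped to 0 when any 1 of the 6 arrays was left out. The median was -0.082 with 16F16, against -0.012 over all genes.

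**Figure D3:**
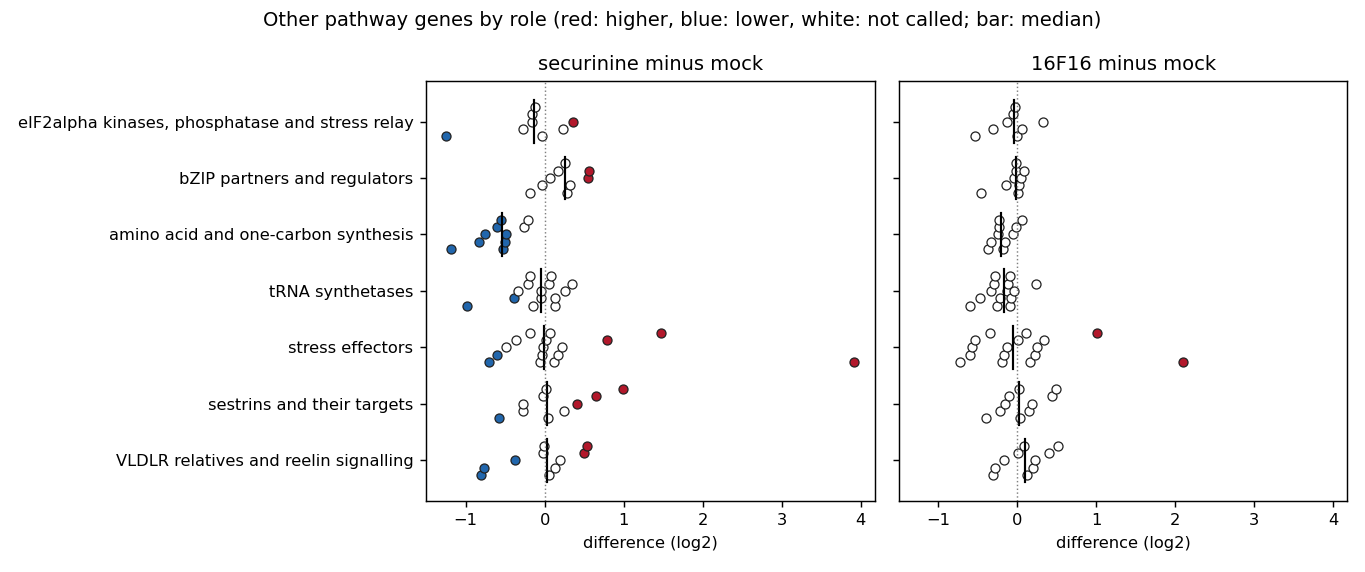
Differences from mock (log2, horizontal axis) of the 77 measured pathway genes in 7 role lists, for securinine (left) and 16F16 (right), with a bar at each list's median. Amino acid and one-carbon synthesis is the list with 8 blue points with securinine, and GDF15 is the red point near 4 on the left and near 2 on the right.

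Upstream of ATF4, the list of eIF2alpha kinases and their regulators held 19 genes, of which 8 were measured. With securinine 1 was called higher and 1 lower, or 25% against 19.0% of all genes. IMPACT, which inhibits activation of the amino acid sensing kinase GCN2, fell by 1.24 ± 0.10 (adjusted p = 0.0032 in limma). EIF2AK2, the kinase PKR that senses double-stranded RNA, was called at 0.36 ± 0.093 (adjusted p = 0.049), and the call was lost after quantile normalization, after centring each array on its median and without any 1 of the 6 arrays. EIF2AK3, the ER stress kinase PERK, was at 0.23 ± 0.083 with securinine and 0.33 ± 0.083 with 16F16, and neither passed. DELE1, which relays mitochondrial stress, was at -0.27 ± 0.092 with securinine and -0.30 ± 0.092 with 16F16, also without passing. With 16F16 IMPACT was at -0.54 ± 0.10 (adjusted p = 0.069 in limma) and none of the 8 was called, with 3 at an unadjusted p under 0.05 (37.5% against 21.1% of all genes). The list's median was -0.14 with securinine and -0.039 with 16F16.

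Among 9 measured of 16 listed bZIP partners and regulators, ATF3 and NFE2L2 rose with securinine and 0 fell. These 22.2% were near the 19.0% of all genes called. ATF3, a bZIP factor induced by many stresses, rose by 0.54 ± 0.13 (adjusted p = 0.040 in limma). On the mock arrays ATF3 read 4.35 and 4.55, close to the array medians of 4.19 and 4.20. Without detection calls its mock signal was not shown to be above background. NFE2L2, which encodes NRF2, the regulator of the antioxidant response, rose by 0.56 ± 0.093 (adjusted p = 0.014). Both calls were lost when any 1 mock or securinine array was left out. TRIB3, a pseudokinase induced by ATF4 and CHOP that feeds back on ATF4, was at -0.18 ± 0.11 with securinine and -0.14 ± 0.11 with 16F16 and passed in neither. TRIB1, a related pseudokinase, was at 0.29 ± 0.078 with securinine and -0.46 ± 0.078 with 16F16 without passing, and it was 0.75 ± 0.078 higher with securinine than with 16F16 (adjusted p = 0.011). That call was lost without securinine replicate 1, securinine replicate 2 or 16F16 replicate 1, and where every probe set was tested. NFE2L1 was at 0.26 ± 0.077 with securinine (adjusted p = 0.073 in limma). With 16F16 none of the 9 passed, and 1 had an unadjusted p under 0.05 (11.1% against 21.1% of all genes). The median of the list was 0.26 with securinine and -0.012 with 16F16.

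The list of amino acid and one-carbon synthesis held 16 genes besides PSAT1, of which 10 were measured. Of these 10, 8 fell with securinine, 0 rose and 2 did not pass. That was 80% called, against 19.0% of all genes, with a median of -0.54 against -0.035 over all genes. All 10 had an unadjusted p under 0.05 in limma, or 100% against 33.6% of all genes. PHGDH, the first enzyme of serine synthesis, read 6.89 and 6.91 with securinine, 8.002 and 7.68 with 16F16 and 8.07 and 8.08 with mock, and fell by 1.18 ± 0.12 with securinine (adjusted p = 0.0046 in limma). SHMT2, the mitochondrial enzyme that turns serine into glycine and a one-carbon unit, fell by 0.83 ± 0.091. CTH and CBS, the enzymes that make cysteine from homocysteine, fell by 0.76 ± 0.084 and 0.53 ± 0.083. ASNS, the asparagine synthetase often used as an ATF4 target, fell by 0.60 ± 0.098 (adjusted p = 0.013 in limma) and was singled out after its value was seen. To complete the count, PCK2 fell by 0.55 ± 0.096, MTHFD1L by 0.50 ± 0.095 and SHMT1 by 0.49 ± 0.12. The 2 that did not pass were PSPH, the last enzyme of serine synthesis, at -0.22 ± 0.080 (adjusted p = 0.12), and PYCR1, of proline synthesis, at -0.26 ± 0.092 (adjusted p = 0.11). The count of 8 was the same after quantile normalization and after centring each array on its median, and it dropped to 3 without mock replicate 1, mock replicate 2, securinine replicate 1 or securinine replicate 2, and where every probe set was tested. The 3 were CTH, PHGDH and SHMT2 in each case.

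With 16F16 none of the 10 synthesis genes passed in limma, with 3 at an unadjusted p under 0.05 (30% against 21.1% of all genes), and the median was -0.21 against -0.012 over all genes. CTH was at -0.37 ± 0.084 and CBS at -0.33 ± 0.083. PHGDH was at -0.23 ± 0.12, and the difference of securinine from 16F16 was -0.95 ± 0.12 (adjusted p = 0.016 in limma). In that direct contrast 5 of the 10 were called lower with securinine and 0 higher (9.51% of all genes were called), and the count dropped to 1 without mock replicate 1 or 2, to 2 without 16F16 replicate 2 and to 0 without any 1 of the other arrays. Of the 3 enzymes of serine synthesis, PSAT1 was the one that passed with 16F16 in the main fit. Its call was lost in the fit of only the 4 arrays compared (adjusted p = 0.10 in limma). PSPH was called too when the variance prior followed intensity and with only the brighter genes in the fit.

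**Figure D4:**
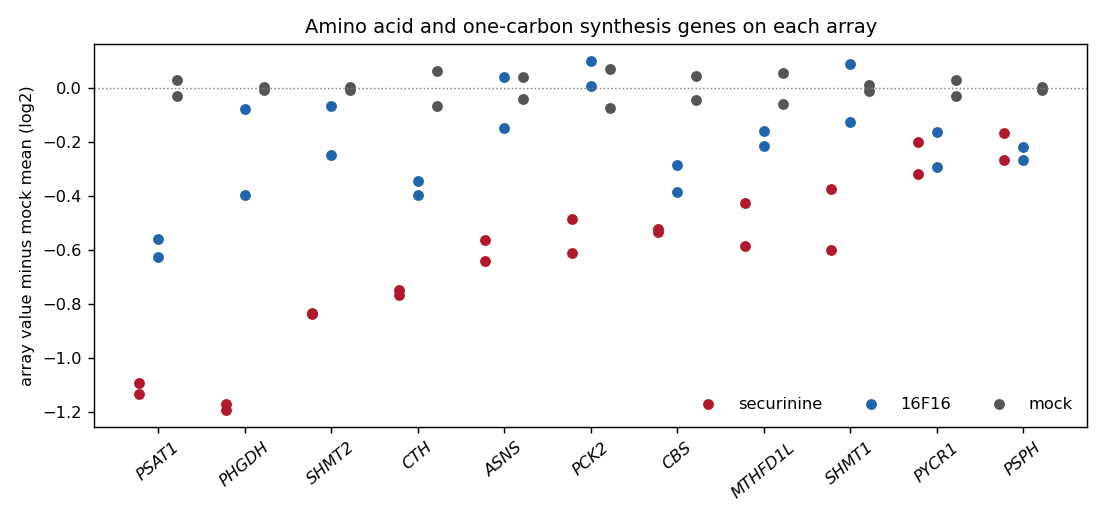
Value of each array minus the mean of the 2 mock arrays (log2, vertical axis) for PSAT1 and the 10 other measured genes of amino acid and one-carbon synthesis, ordered after PSAT1 by the difference of securinine from mock. Both 16F16 points of PHGDH, SHMT2, ASNS, PCK2, MTHFD1L and SHMT1 lie nearer to mock than to securinine.

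Among 14 tRNA synthetase genes, a class that ATF4 also induces, 0 rose and 2 fell with securinine, or 14.3% against 19.0% of all genes. VARS1, for valine, fell by 0.98 ± 0.12 (adjusted p = 0.0069 in limma) and LARS1, for leucine, by 0.39 ± 0.079 (adjusted p = 0.024). AARS1, for alanine, was at 0.35 ± 0.099 and EPRS1, for glutamate and proline, at -0.34 ± 0.091 without passing. With 16F16 none of the 14 passed, and 7 had an unadjusted p under 0.05 in limma, or 50% against 21.1% of all genes. VARS1 was at -0.60 ± 0.12 and TARS1, for threonine, at -0.47 ± 0.078 with 16F16. The count with securinine was 0 without mock replicate 2, and 1 without mock replicate 1 or either securinine array. The median was -0.041 with securinine and -0.17 with 16F16, and 13 of the 14 estimates were below 0 with 16F16. Without 16F16 replicate 2 it was 11 of the 14. The share of all genes below 0 was not counted, and their median with 16F16 was -0.012.

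Of 16 measured among 23 listed stress effectors, 3 rose and 2 fell with securinine, or 31.2% against 19.0% of all genes. GDF15, a secreted stress cytokine, rose by 3.92 ± 0.14 with securinine and 2.09 ± 0.14 with 16F16. SQSTM1, an autophagy receptor, rose by 1.47 ± 0.080 with securinine and 1.01 ± 0.080 with 16F16. GDF15 is a target of CHOP, and both GDF15 and SQSTM1 are also known to respond to factors other than ATF4. MAP1LC3B, an autophagosome protein whose gene ATF4 induces, rose by 0.79 ± 0.13 with securinine (adjusted p = 0.013 in limma) and was at 0.33 ± 0.13 with 16F16 (adjusted p = 0.22). MAP1LC3B was not among the genes called where only genes at or above the median were kept, which left 12 of the 16. EIF4EBP1, an inhibitor of translation initiation and an ATF4 target, fell by 0.70 ± 0.10 with securinine (adjusted p = 0.010) and was at -0.19 ± 0.10 with 16F16. STC2, a secreted glycoprotein, was the other gene that fell, by 0.60 ± 0.12, and is named to complete the count. The 5 calls with securinine dropped to 2 without mock replicate 1, mock replicate 2 or securinine replicate 1. The median of the list was -0.0045 with securinine and -0.060 with 16F16.

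SESN2 was not the only sestrin that rose with securinine. SESN1, known as a p53 target, read 8.70 and 8.67 with securinine, 8.04 and 8.21 with 16F16 and 7.72 and 7.65 with mock, and rose by 0.996 ± 0.093 with securinine (adjusted p = 0.0041 in limma). SESN3, known as a FOXO target, rose by 0.41 ± 0.093 with securinine (adjusted p = 0.034). With 16F16 SESN1 was at 0.44 ± 0.093 (adjusted p = 0.079) and SESN3 at 0.020 ± 0.093 (adjusted p = 0.93). SESN2 passed in the main fit, close to the threshold (adjusted p = 0.042 in limma). Its call was lost in the fit of only the 4 arrays compared (adjusted p = 0.10). SESN1 was called too when the variance prior followed intensity and with only the brighter genes in the fit. The values thus do not set SESN2 apart from SESN1 with 16F16. KEAP1, the NRF2 repressor that sestrins help to degrade, rose by 0.65 ± 0.077 with securinine (adjusted p = 0.0063) and was at 0.49 ± 0.077 with 16F16 (adjusted p = 0.052). SEH1L, a subunit of the GATOR2 complex that sestrin 2 binds, fell by 0.57 ± 0.082 with securinine (adjusted p = 0.0097) and was at -0.39 ± 0.082 with 16F16. Of the 10 measured genes of this list 3 rose and 1 fell with securinine, or 40% against 19.0% of all genes. With 16F16 limma called 0, and 4 had an unadjusted p under 0.05 (40% against 21.1% of all genes). The medians were 0.028 with securinine and 0.026 with 16F16. The 4 calls dropped to 1 without mock replicate 1 and to 2 without mock replicate 2, securinine replicate 1 or securinine replicate 2.

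Of 10 measured VLDLR relatives and reelin pathway genes, 2 rose and 3 fell with securinine, or 50% against 19.0% of all genes. LRP4, a relative that organises neuromuscular synapses, fell by 0.81 ± 0.092 (adjusted p = 0.0057 in limma), and MYLIP, the ubiquitin ligase that directs VLDLR and the LDL receptor to degradation, fell by 0.77 ± 0.095 (adjusted p = 0.0069). LRP5 fell by 0.37 ± 0.078, and LRP6, like LRP5 a coreceptor for Wnt ligands, rose by 0.53 ± 0.076. LRP1, a large endocytic receptor, rose by 0.50 ± 0.11 with securinine (adjusted p = 0.030), and its value of 0.51 ± 0.11 with 16F16 did not pass (adjusted p = 0.078). With 16F16 none of the 10 passed in limma, and 4 had an unadjusted p under 0.05 (40% against 21.1% of all genes). MYLIP was at -0.31 ± 0.095 and LRP4 at -0.28 ± 0.092 with 16F16. The 5 calls with securinine dropped to 1 without mock replicate 1 and to 2 without mock replicate 2, securinine replicate 1 or securinine replicate 2. The list's median was 0.027 with securinine and 0.10 with 16F16.

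Genes whose values followed each member most closely were ranked by Pearson's r over the 6 arrays, which fall into 3 treatment groups, among brighter genes with at least 0.5 of the member's range. For ATF4 they were TMEM88, KAT6B and OGA (r = 0.997, 0.997 and 0.996). TMEM88 was at 0.75 with securinine and -0.27 with 16F16, the same pair of signs as ATF4. For DDIT3 they were FLJ42627, CNTNAP2 and SRXN1 (r = 0.998, 0.996 and 0.995), the last a sulfiredoxin. For SESN2 they were CSRNP3, KCTD12 and CLU (r = 0.999, 0.998 and 0.996), and for PSAT1 the helicase subunit MCM7, FHOD3 and HRH3 (r = 0.999, 0.998 and 0.998). For VLDLR they were ITPK1, INSM2 and G3BP1 (r = 0.998, 0.998 and 0.997). With 6 arrays in 3 groups, values of r this high describe the order and spacing of the groups and carry no test.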

How the data were processed

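RNA was hybridised to 6 Affymetrix Human Gene 2.0 ST arrays, 2 each for securinine, 16F16 and mock. The authors deposited log2 values for 53617 probe sets per array, made with RMA per the submitters' processing notes, which also list limma and state no version or setting. Between-array normalization removes a change shared by most genes. No filter, annotation release or genome build of the array design is given in the sources used here. Neither scanner files nor detection calls were used. A platform annotation table named 16098 probe sets with 1 gene symbol, 0 with several, and left 37519 without a name. Each of the 16098 could be matched by Entrez identifier to RefSeq genes (GRCh38.p14). Where a gene had several probe sets (779 genes) the brightest over the 6 arrays was used, which gave 14884 genes.

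From these values, limma (version 3.58.1 in R 4.3.3) was fitted with lmFit and eBayes to all 6 arrays, with treatment group as the model term and 3 residual and 2.68 prior degrees of freedom. The 3 comparisons were securinine minus mock, 16F16 minus mock and securinine minus 16F16, with Benjamini-Hochberg adjustment over 14884 genes. The fit was tried on simulated data with differences placed in the securinine group only, which checks the code and does not bear on the 16F16 calls. Precision is limited by having 2 arrays per group, and differences had a median SE of 0.11. The 5 genes and the pathway lists were chosen with earlier results of these data known. Named from each list were up to 4 genes with the lowest p for securinine and up to 2 for 16F16, and for each of the 5 genes the 3 most similar. ASNS, MTHFD1L, PCK2, PSPH, PYCR1, SHMT1 and STC2 were named outside this rule, after their values were seen. Alternatives covered normalization, centring, variance prior, arrays in the fit, replicate number, dim genes, probe set choice, probe sets tested and each array left out.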

Additional observations from a re-analysis of the deposited data

How the results depend on the processing

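No difference of the 5 genes changed sign under any of the 15 alternatives run. For securinine against mock all 5 kept their calls wherever they were fitted, since DDIT3 lay below the median brightness of all genes and was left out where dim genes were. Without 1 array in turn, the count for securinine against mock stayed at 5 of 5, while all genes called ranged from 629 to 2462 and pathway genes from 9 to 28. For 16F16 against mock, leaving out an array gave 0 of 5, 0 pathway genes and 0 genes in all in limma, with 2099 to 2904 genes at an unadjusted p under 0.05. For securinine against 16F16 it gave 0 to 2 of 5, 0 to 324 genes and 0 to 5 pathway genes. The fit of only the 4 arrays compared gave 0 of 5, 0 genes (2904 at an unadjusted p under 0.05) and 0 pathway genes for 16F16 against mock, and 2 of 5, 324 genes and 3 pathway genes for securinine against 16F16. Testing every probe set gave 0 of 5, 0 genes and 0 pathway genes in limma for both of these comparisons (7250 and 9565 probe sets at an unadjusted p under 0.05), and 15 pathway genes for securinine against mock. An intensity trend raised the counts to 1808 genes and 23 pathway genes for 16F16 against mock, and to 3107 and 31 for securinine against 16F16. Keeping only genes at or above the median gave 1737 and 26, and 2948 and 27. Quantile normalization, centring, a robust variance prior and the mean of all probe sets of a gene left these counts within 1.5 times. The cause of these shifts was not tested.

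Samples with the same replicate number did not deviate together (correlations of -0.032, 0.038 and -0.050 across genes), so the number gives no pairing. With the replicate block, 16F16 against mock had 0 of 5, 0 genes (2856 at an unadjusted p under 0.05) and 0 pathway genes in limma, and securinine against 16F16 had 2 of 5, 503 genes and 5 pathway genes.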
